A study of Mus musculus with 24 samples.

Results

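The leptin and insulin signalling genes described here are 10 genes chosen by symbol from a gene table of 45706: Lepr, Jak2, Stat3, Socs3, Ptpn1, Insr, Irs1, Irs2, Foxo1 and Akt1. All 10 were found, and all 10 were among the 15667 genes with enough counts to be tested. For the leptin receptor, its 7 entries among the 109617 transcripts were read as well. Polyadenylated RNA of whole hypothalamus from male mice with diet-induced obesity was sequenced in 24 libraries, 8 in each of 3 groups. The PSD-95i group received UCCB01-147, an inhibitor of the synaptic scaffold protein PSD-95, at 25 mg/kg, and the PICK1i group received mPD5, an inhibitor of the scaffold protein PICK1, at 56 mg/kg. The third group received isotonic saline. In each group, mice with a mean body weight of 53 g, kept in pairs, were injected daily for 5 days and killed 2 h after the last injection. The protocol names 6 saline mice while the labels give 8 saline libraries, and no label ties a library to a mouse, so the p-values measure the spread between libraries. Age and strain are not stated in the labels.

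Leptin, released by fat, binds its receptor on hypothalamic neurons, where the attached kinase JAK2 phosphorylates the receptor tail and the transcription factor STAT3 is recruited, phosphorylated and moved to the nucleus. SOCS3, itself induced by STAT3, and the phosphatase PTP1B, encoded by Ptpn1, damp this signal. Insulin acts on overlapping neurons through its receptor, the adaptors IRS1 and IRS2 and the kinase AKT, which keeps the transcription factor FOXO1 out of the nucleus, and in mouse arcuate neurons STAT3 and FOXO1 have opposite effects on the appetite-suppressing gene Pomc. RNA levels report none of the phosphorylation steps.

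The receptor forms compared here differ only at the end that lies inside the cell, and the deposited transcript table separates them. Lepr lies on chromosome 4 of GRCm38, from 101717404 to 101815352 on the plus strand. In the GENCODE M21 annotation, Lepr-201 has 19 exons and 1162 codons and encodes the long form, the form with the STAT3 docking site. Lepr-203 has 894 codons and Lepr-202 has 892 codons, and both encode short forms that lack it. The first 2667 coding bases are the same in all 3 transcripts. They are printed here from the last 30 shared bases on, which stand in lower case, with the bases particular to each transcript in capitals, because this tail is what sets the long form apart. Only the first 90 of the 822 particular coding bases of Lepr-201 are printed, whereas the 18 of Lepr-203 and the 12 of Lepr-202 are printed whole, stop codon included.
Lepr-201: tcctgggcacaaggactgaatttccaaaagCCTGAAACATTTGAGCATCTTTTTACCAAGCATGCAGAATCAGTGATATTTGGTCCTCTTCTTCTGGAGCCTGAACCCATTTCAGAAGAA
Lepr-203: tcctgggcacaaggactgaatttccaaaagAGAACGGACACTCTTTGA
Lepr-202: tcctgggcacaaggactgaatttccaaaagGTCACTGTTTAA

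Among the members, Socs3 is the textbook direct target of STAT3, and its promoter was searched together with those of the others. RefSeq promoter windows on GRCm38.p6 were found for 9 of the 10 members, 11 windows in all. The STAT motif TTCNNNGAA occurred in 1 of the 11 windows, that of Socs3, and in 8.3% of all 32851 windows, searched on both strands. The match is in capitals in the Socs3 window at chr11:117969317-117969616, minus strand. Its first base lies 154 bases before the RefSeq transcript start that sets the window. In GENCODE M21, Socs3 runs from 117966079 to 117970047 on the same strand, so the whole window lies inside that gene. Whether STAT3 binds this match was not tested.
Socs3: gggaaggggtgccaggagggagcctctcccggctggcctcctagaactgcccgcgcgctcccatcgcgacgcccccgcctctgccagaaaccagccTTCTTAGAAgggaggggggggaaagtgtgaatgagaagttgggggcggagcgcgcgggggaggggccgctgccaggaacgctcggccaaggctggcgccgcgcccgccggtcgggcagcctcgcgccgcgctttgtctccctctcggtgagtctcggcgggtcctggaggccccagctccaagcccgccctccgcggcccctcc
A FOXO motif, GTAAACA, was found on either strand in 1 of the 11 windows, 1 of those of Akt1, and in 3.65% of all windows, and the 2 motifs do not overlap in any member window.

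Libraries held 4762703 to 9228858 estimated counts, with a median of 7628245. All 16 marker genes of hypothalamic nuclei were found, with summed levels of 1050 to 1500 TMM-scaled CPM (counts scaled to library size) in PSD-95i, 1200 to 1680 in PICK1i and 803 to 1630 in saline libraries. Saline replicates 2 and 3 stood apart: a list of 12 anterior pituitary genes, all of them found, summed to 62900 and 39000 CPM there and to at most 56.1 CPM in any of the other 22 libraries. PICK1i replicates 1, 2, 5 and 6 had 13.5 to 16.6% of their counts in mitochondrial genes, against 8.51 to 10.4% in PSD-95i, 8.7 to 11.2% in the other 4 PICK1i and 7.88 to 10.7% in saline libraries. These 4 libraries also had lower counts of genes with long transcripts, with a slope of log2 level on log2 transcript length of -0.172 to -0.0951, against -0.00929 to 0.0883 in PSD-95i, -0.0238 to 0.0693 in the other 4 PICK1i and -0.0211 to 0.0485 in saline libraries. Of the 10 members, 8 have transcripts longer than the median of 2763 bases over all tested genes. The members' values that rest on these libraries are given with and without them.

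Per transcript length, Akt1 was the most abundant member and the leptin receptor and Irs1 the least. Mean TPM, a level scaled to transcript length and library size, over the 24 libraries were 153 for Akt1, 41.4 for Stat3, 24.6 for Ptpn1, 16.6 for Insr, 12.9 for Jak2, 12.4 for Irs2, 8.73 for Socs3, 8.40 for Foxo1, 2.65 for Lepr and 2.43 for Irs1. Akt1 exceeded Stat3, Stat3 exceeded Ptpn1, Ptpn1 exceeded Insr and Insr exceeded Jak2 in 24 of 24 libraries, as Foxo1 exceeded Lepr. Jak2 exceeded Irs2 in 13 libraries, Socs3 exceeded Foxo1 in 12 and Lepr exceeded Irs1 in 14, so these neighbours could not be ordered, while Irs2 exceeded Socs3 in 19.

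**Figure D1:**
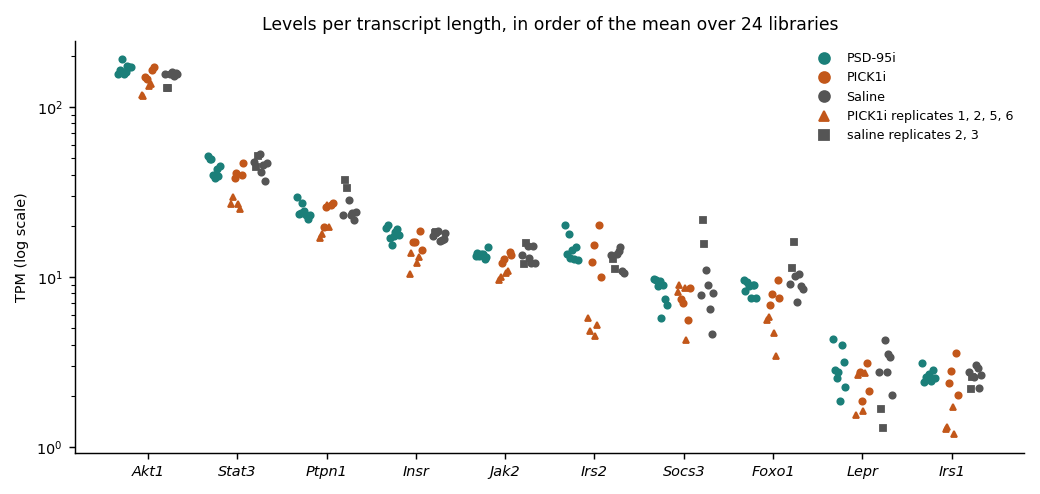
Levels of the 10 members per transcript length, in TPM on a log scale, with 1 point per library and the groups PSD-95i, PICK1i and saline from left to right within each gene. Akt1 averaged 153 TPM and Irs1 2.43 TPM, and Irs2 fell into separate low and high sets of PICK1i libraries.

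PICK1 inhibition went with lower RNA of the leptin signal's transcription factor, the insulin receptor and the insulin-restrained transcription factor. Stat3, Insr and Foxo1 were lower in PICK1i than in saline libraries at an adjusted p below 0.05 (edgeR's quasi-likelihood test, Benjamini-Hochberg over all 15667 genes), so 3 of 10 members were called lower and 0 higher. Over all tested genes 4.27% were called lower and 4.88% higher, 9.15% in all. Of the 10 log2 fold changes, 9 were below 0, with a median of -0.30, against a median of -0.01 over all tested genes. The median transcript length was 4401 bases for all genes called lower and 1610 bases for those called higher. It was 2763 bases for all tested genes and 4621 bases for the members. No member was called without saline replicates 2 and 3, when 5 of all genes were called, nor without PICK1i replicates 1, 2, 5 and 6, when 0 of all genes were called. Without all 6 of these libraries the log2 fold changes of Stat3, Insr and Foxo1 were -0.14, -0.08 and -0.18. Leaving out PICK1i replicate 5 alone also left 0 members called, when 299 of all genes (1.9%) were called. Leaving out PICK1i replicate 7 gave 5 members, when 2757 of all genes (17.5%) were called. In whole tissue, fewer cells of a type and less RNA per cell cannot be told apart.

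Some marker genes of cell types were also called in this comparison, where 4.27% of all tested genes were called lower and 4.88% higher. Of 13 tanycyte genes, all found and tested, 4 were called lower in PICK1i than in saline libraries, and their summed level was 222 to 379 CPM in PSD-95i, 109 to 285 CPM in PICK1i and 237 to 409 CPM in saline libraries. Of 10 neuronal genes, all found and tested, 2 were called higher, with sums of 3840 to 4440 CPM in PSD-95i, 3530 to 5200 CPM in PICK1i and 2770 to 4100 CPM in saline libraries. The lowest neuronal sums, 2770 and 3000 CPM, were in saline replicates 2 and 3, and the other saline libraries held 3730 to 4100 CPM. The highest, 5200 CPM, was in PICK1i replicate 6. Of 9 oligodendrocyte genes, all found and tested, 1 was called higher, with sums of 5370 to 6550 CPM in PSD-95i, 5220 to 10100 CPM in PICK1i and 2930 to 7320 CPM in saline libraries. The highest oligodendrocyte sums, 10100 and 9210 CPM, were in PICK1i replicates 6 and 5, and the lowest, 2930 and 3890 CPM, in saline replicates 2 and 3. In other lists, 3 of 3 tested anterior pituitary genes and 2 of 11 leptomeningeal genes were called lower. The same held for 1 of 10 tested cortical and hippocampal genes and 1 of 8 mural genes. Of 12 endothelial genes, 1 was called lower and 1 higher. No gene was called in the lists of hypothalamic nuclei, choroid plexus, microglia, astrocytes or red blood cells. No marker of the tanycyte, neuronal and oligodendrocyte lists was at 0 in every library. The part of any of these cell types in the members' levels was not tested.

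PSD-95 inhibition left no member called against saline, where 0% of all genes were called by edgeR's quasi-likelihood test. The number of genes at an unadjusted p below 0.05 was 1719, among them 2 members, Ptpn1 and Foxo1, and DESeq2 likewise called 0 genes. The member median log2 fold change was -0.06, against -0.0031 over all tested genes, and 8 of the 10 values were below 0. Both inhibitor groups were set against the same 8 saline libraries. In the direct comparison of PSD-95i with PICK1i libraries 0% of all genes and 0 of 10 members were called, 3789 genes and 3 members (Stat3, Insr and Irs2) had an unadjusted p below 0.05. DESeq2 called 1359 genes in this comparison, among them 1 member, Stat3, with an adjusted p of 0.0259. Of the 10 log2 fold changes, PSD-95i over PICK1i, 9 were above 0, with a median of 0.20, against -0.01 over all tested genes.

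**Figure D2:**
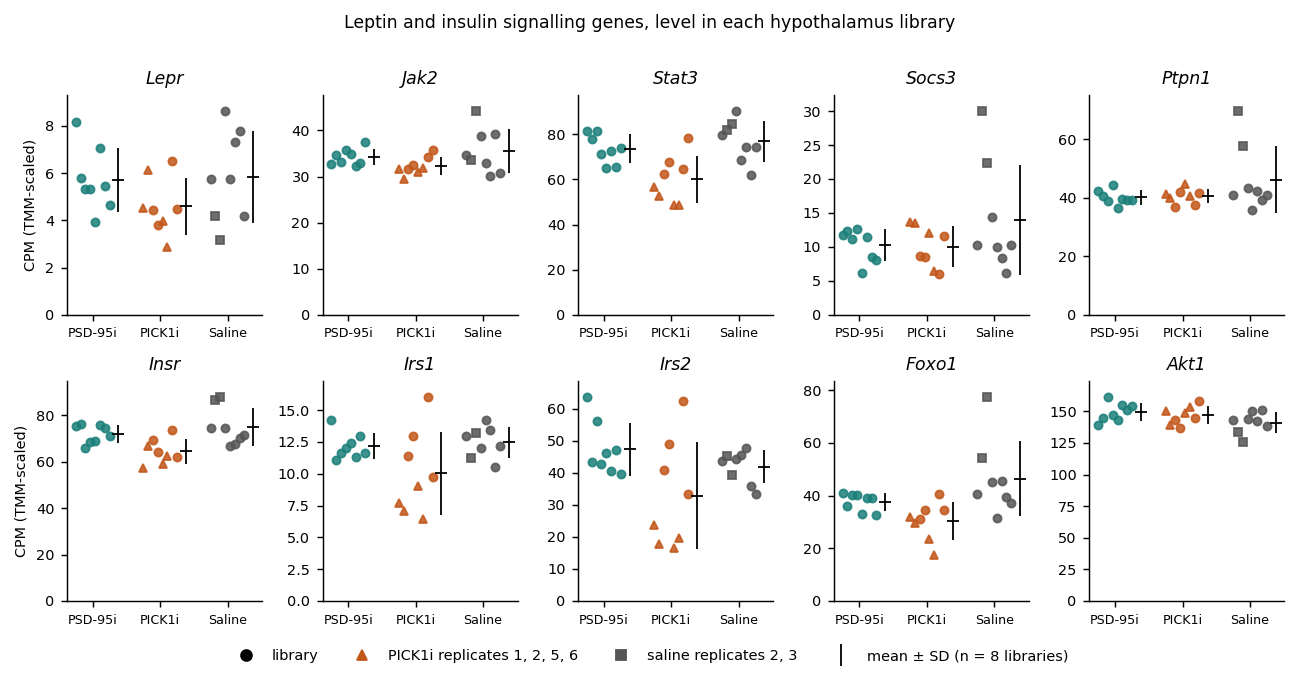
Level of each member in every library, in TMM-scaled CPM, with PSD-95i, PICK1i and saline from left to right and the mean ± SD (n = 8 libraries) beside each group. Stat3 reached 48.8 to 78.2 CPM in PICK1i and 62.1 to 90.3 CPM in saline libraries; squares (saline replicates 2 and 3) top the saline points for Socs3, Ptpn1, Insr and Foxo1, and triangles (PICK1i replicates 1, 2, 5 and 6) hold the lowest 4 PICK1i values for Stat3, Irs1 and Irs2.

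The leptin receptor itself was rare and variable. Lepr had a lowest, median and highest level of 3.93, 5.38 and 8.18 CPM in PSD-95i libraries, 2.88, 4.46 and 6.53 CPM in PICK1i libraries and 3.18, 5.75 and 8.63 CPM in saline libraries, from 13 to 70 counts per library. The 3 ranges overlapped over most of their width, and PICK1i replicate 6 and saline replicate 3 were the lowest libraries. Against saline, the log2 fold change was -0.03 ± 0.19 (SE) for PSD-95i, with an adjusted p of 0.960, and -0.33 ± 0.19 for PICK1i, with an adjusted p of 0.266. Of the PICK1i libraries, 6 of 8 lay below the saline median. Without saline replicates 2 and 3, the 2 lowest saline libraries for Lepr, the PICK1i value was -0.49, with an adjusted p of 0.109, and without the 4 PICK1i libraries of high mitochondrial share it was -0.27, with an adjusted p of 0.633.

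Most receptor counts came from the long form in every group. Lepr-201 held 648 of the Lepr counts of the 24 libraries, 67.6% (95% Wilson interval 64.6 to 70.5%), Lepr-203 168 (17.5%) and Lepr-202 127 (13.3%). The other 4 entries, 3 of them short noncoding transcripts, held 10, 4, 1 and 0 counts, where a count of 0 allows a share of up to 0.399% by the Wilson interval. Intervals cover counting error only, and reads from the shared part of the transcripts do not tell the forms apart, so the split is the estimate of the quantifier. The share of Lepr counts in the long form averaged 70.2 ± 11.4% in PSD-95i, 65.6 ± 13% in PICK1i and 67.6 ± 12.9% in saline libraries (SD, n = 8 each). Single libraries ran from 58.1 to 89.7% in PSD-95i, from 46.2 to 87.5% in PICK1i and from 45.9 to 90.7% in saline, so the groups overlapped almost fully. The PSD-95i mean was 2.56 percentage points above saline (exact two-sided permutation test over 12870 splits, p = 0.679), the PICK1i mean 2.00 points below saline (p = 0.763) and the PSD-95i mean 4.56 points above PICK1i (p = 0.465), with an adjusted p of 0.763 for each over the 3 comparisons. When counts were divided by transcript length, the PSD-95i difference from saline turned to -2.31 points (exact permutation p = 0.692), and the PICK1i difference from saline was -7.35 points (exact permutation p = 0.415). In PICK1i replicate 6, with 13 Lepr counts, the long-form share was 46.2% by counts and 20.1% per kilobase. There 2 counts fell on Lepr-204 and 1 on Lepr-206, both short noncoding transcripts.

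**Figure D3:**
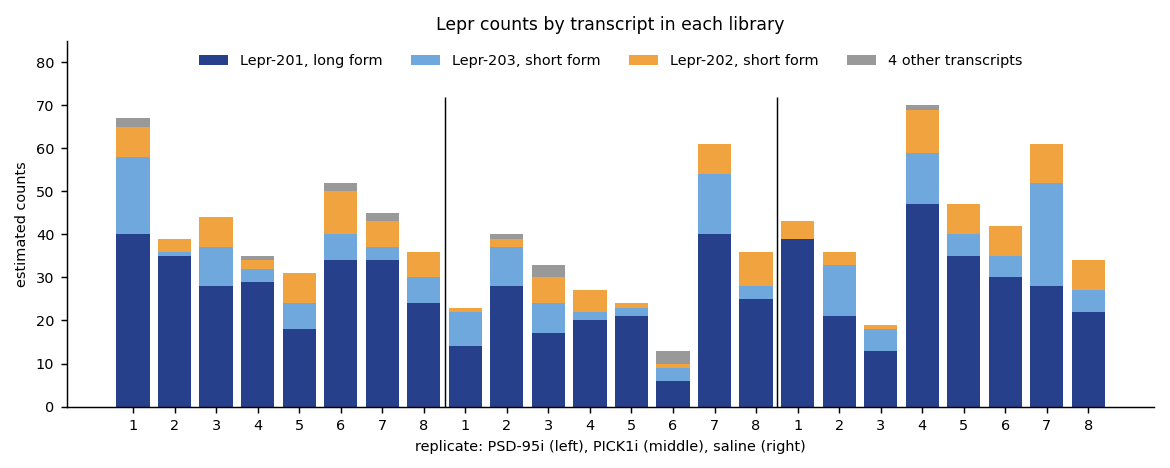
Estimated counts of Lepr in each library, stacked by transcript, with PSD-95i replicates on the left, PICK1i in the middle and saline on the right. The long form, Lepr-201, is the largest block in every library, from 6 counts in PICK1i replicate 6 to 47 in saline replicate 4.

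Lepr-201 was the only Lepr transcript with enough counts to be tested on its own. Its log2 fold change was 0.01 for PSD-95i against saline, with an adjusted p of 0.996, and -0.34 ± 0.22 (SE) for PICK1i against saline, with an adjusted p of 0.359. Over all 37955 transcripts tested with edgeR, 0% were called for PSD-95i and 2% for PICK1i against saline, 0.977% higher and 1.02% lower; of 23 tested transcripts of the members, 2 were called for PICK1i, both lower. These transcript calls depended on single libraries: 760 of all transcripts were called for PICK1i with all libraries, and 0 without saline replicates 2 and 3, without PICK1i replicates 1, 2, 5 and 6, without saline replicate 4 alone or without PICK1i replicate 5 alone.

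Jak2, the kinase bound to the receptor, varied little. It had 32.2, 33.9 and 37.4 CPM (lowest, median, highest) in PSD-95i, 29.5, 31.8 and 35.7 CPM in PICK1i and 30.2, 34.1 and 44.2 CPM in saline libraries. The inhibitor ranges lay inside or just at the low edge of the saline range, which was the widest. Saline replicate 3 held the 44.2 CPM, and the next highest saline library held 39.2 CPM. The Jak2 log2 fold change against saline was -0.05 for PSD-95i (edgeR adjusted p = 0.775) and -0.13 ± 0.07 for PICK1i (edgeR adjusted p = 0.187).

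Stat3, on the minus strand of chromosome 11 at 100885098 to 100939540, had 64.9, 73.2 and 81.6 CPM in PSD-95i, 48.8, 59.5 and 78.2 CPM in PICK1i and 62.1, 77.2 and 90.3 CPM in saline libraries. Of the 8 PICK1i libraries, 7 lay below the saline median. PICK1i replicate 8 reached 78.2 CPM and saline replicate 7 fell to 62.1 CPM, so the groups overlapped. Stat3 averaged 60.0 ± 10.3 CPM in PICK1i and 77.0 ± 9.07 CPM in saline libraries (SD, n = 8 each), a log2 fold change of -0.35 ± 0.09 (SE), or 0.782 times the saline level, with an adjusted p of 0.0219 by edgeR. The 4 PICK1i libraries with a high mitochondrial share held the lowest PICK1i values, 48.8 to 56.5 CPM, while the other 4 held 62.6 to 78.2 CPM. Without those 4 the value was -0.18, with an adjusted p of 0.420, and without saline replicates 2 and 3 it was -0.32, with an adjusted p of 0.0737. Of the 24 fits that left out 1 library, 23 kept the call, and the fit without PICK1i replicate 5 gave an adjusted p of 0.0561.

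Of 5 Stat3 transcripts tested, 1 was called for PICK1i against saline, and all 5 had a negative log2 fold change. ENSMUST00000138438, a coding transcript with 19.7% of the Stat3 counts, was the one called, at -0.51 ± 0.13 (edgeR adjusted p = 0.0392), a call lost, with all other transcript calls, when either set of libraries that stood apart was left out. The most abundant, ENSMUST00000103114 with 32.8% of the counts, had -0.41 and an adjusted p of 0.0504, and ENSMUST00000127638 with 20.2% had -0.15 and an adjusted p of 0.380. Whether the transcripts differed from each other was not tested.

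Against PICK1i libraries, all 8 PSD-95i libraries lay above the PICK1i median of Stat3. The log2 fold change, PSD-95i over PICK1i, was 0.29 ± 0.09 (edgeR adjusted p = 0.0651), the smallest adjusted p of any member in this comparison. It passed the threshold in the fit without saline replicates 2 and 3, which share in the estimate of the spread, with an adjusted p of 0.0449, and without PICK1i replicate 4, 7 or 8. PSD-95i against saline gave -0.06 (adjusted p = 0.796). Without the 4 PICK1i libraries of high mitochondrial share, PSD-95i over PICK1i was 0.11.

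The feedback inhibitors did not pass the test in any comparison. Socs3, the STAT3-induced suppressor of cytokine signalling, had 6.21, 11.4 and 12.6 CPM in PSD-95i, 6.00, 10.1 and 13.6 CPM in PICK1i and 6.12, 10.3 and 30.0 CPM in saline libraries. The 3 medians were alike, and the saline range was stretched by replicates 2 and 3, the libraries with pituitary transcripts, at 30.0 and 22.4 CPM. The log2 fold change against saline was -0.45 ± 0.25 for PSD-95i (edgeR adjusted p = 0.506) and -0.49 ± 0.26 for PICK1i (edgeR adjusted p = 0.205). Without those 2 saline libraries it was 0.04 for PSD-95i and -0.0045 for PICK1i.

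Ptpn1, which encodes the phosphatase that removes phosphate from JAK2 and from the insulin receptor, followed the same pattern. It had 36.4, 39.4 and 44.5 CPM in PSD-95i, 36.9, 40.9 and 44.8 CPM in PICK1i and 35.7, 41.7 and 69.7 CPM in saline libraries, where replicates 2 and 3 stood at 69.7 and 57.6 CPM and the other 6 at 35.7 to 43.4 CPM. Its log2 fold change of -0.21 for PSD-95i (edgeR adjusted p = 0.443) and -0.19 for PICK1i (edgeR adjusted p = 0.205) became -0.02 and -0.0013 without those 2 saline libraries. The values for both inhibitors therefore rested on the 2 saline libraries with pituitary transcripts. All of these are gene totals. The quantifier assigned 76.3% of the Ptpn1 counts to ENSMUST00000126839, annotated as a noncoding processed transcript. The coding transcript ENSMUST00000029053 held 18.3%.

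**Figure D4:**
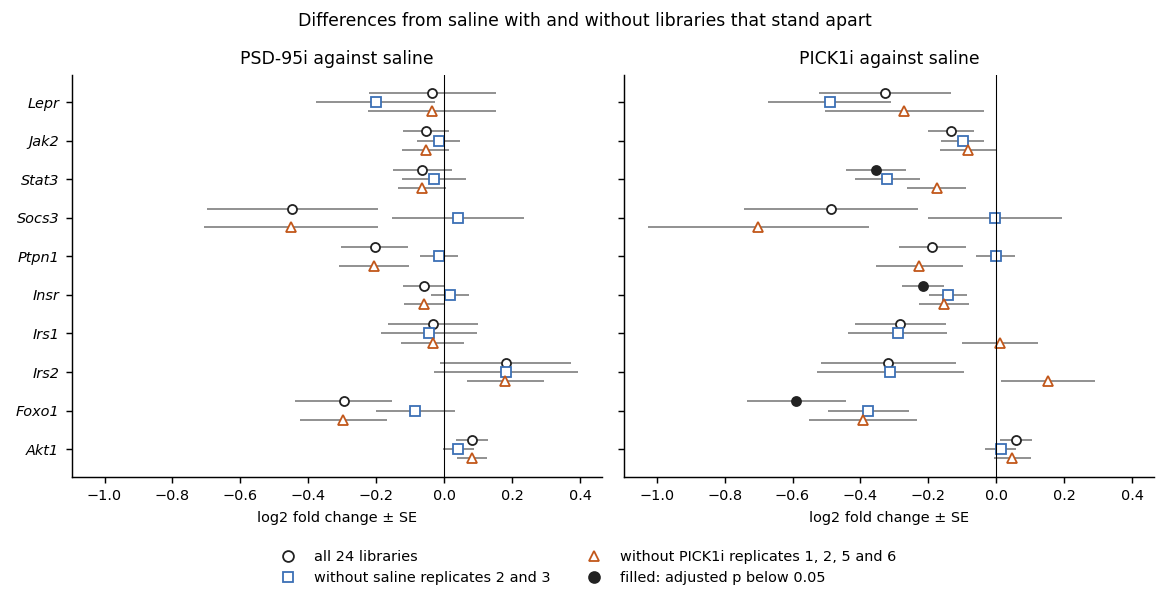
Log2 fold changes (± SE) of the members against saline for PSD-95i on the left and PICK1i on the right, from all 24 libraries (circles), without saline replicates 2 and 3 (squares) and without PICK1i replicates 1, 2, 5 and 6 (triangles); filled symbols have an adjusted p below 0.05. Filled circles appear for Stat3, Insr and Foxo1 under PICK1i at -0.35, -0.22 and -0.59, and no square or triangle is filled.

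The insulin receptor was slightly lower with PICK1 inhibition. Insr, on the minus strand of chromosome 8 at 3122061 to 3279617, had 66.0, 72.8 and 76.2 CPM in PSD-95i, 57.3, 63.3 and 73.8 CPM in PICK1i and 66.8, 73.1 and 87.7 CPM in saline libraries. Of the 8 PICK1i libraries, 7 were below the saline median, and the highest, replicate 7, lay inside the saline range. Insr averaged 64.4 ± 5.43 CPM in PICK1i and 75.0 ± 8.03 CPM in saline libraries (SD, n = 8 each), a log2 fold change of -0.22 ± 0.06 (SE), or 0.861 times the saline level, with an adjusted p of 0.0340 by edgeR. Saline replicates 2 and 3 were the highest libraries, at 86.5 and 87.7 CPM, and without them the value was -0.14, with an adjusted p of 0.122. Without the 4 PICK1i libraries of high mitochondrial share it was -0.15, with an adjusted p of 0.403. Leaving out 1 library kept the call in 17 of 24 fits; it was lost without PICK1i replicate 1, 2, 5 or 6 or saline replicate 2, 3 or 4, with adjusted p up to 0.0929. PSD-95i libraries differed from saline by -0.06 (edgeR adjusted p = 0.734) and from PICK1i by 0.16 (edgeR adjusted p = 0.127), with 8 of 8 above the PICK1i median.

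Of the insulin receptor substrates, Irs2 fell into separate sets within the PICK1i group. Irs2, an adaptor through which insulin acts in hypothalamic neurons of mice, had 39.5, 44.6 and 63.5 CPM in PSD-95i, 16.5, 28.6 and 62.3 CPM in PICK1i and 33.4, 44.0 and 47.8 CPM in saline libraries. PICK1i replicates 1, 2, 5 and 6 held 16.5 to 23.8 CPM, below every PSD-95i and saline library, while PICK1i replicates 3, 4, 7 and 8 held 33.5 to 62.3 CPM, within or above the range of saline. These are the 4 libraries with 13.5 to 16.6% mitochondrial counts and the most negative length slopes; the part of those measures in the Irs2 level was not tested. The group comparison gave a log2 fold change of -0.32 ± 0.20 for PICK1i against saline (edgeR adjusted p = 0.291), and 0.15 without the 4 libraries. PSD-95i over PICK1i was 0.50 ± 0.20 (edgeR adjusted p = 0.123), the largest difference of any member between the inhibitors, and 0.03 without them.

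Irs1, its more weakly expressed relative, was lowest in the same 4 PICK1i libraries but did not fall into separate sets. It had 11.1, 11.8 and 14.2 CPM in PSD-95i, 6.43, 9.40 and 16 CPM in PICK1i and 10.5, 12.6 and 14.2 CPM in saline libraries. These 4 PICK1i libraries held 6.43 to 9.06 CPM, again below every PSD-95i and saline library, and the other 4 held 9.74 to 16 CPM. Among the latter, PICK1i replicate 8, at 9.74 CPM, also lay below every PSD-95i and saline library. The log2 fold change was -0.28 ± 0.13 for PICK1i against saline (edgeR adjusted p = 0.164) and 0.01 without the 4 libraries of high mitochondrial share. Without PICK1i replicate 7, the highest library for both genes, Irs1 and Irs2 passed the threshold for PICK1i against saline. Their edgeR adjusted p were 0.0166 and 0.0389, in a fit that called 17.5% of all genes. For PSD-95i against saline, Irs1 had -0.03 (edgeR adjusted p = 0.943) and Irs2 0.18 (edgeR adjusted p = 0.735). With group means removed and saline replicates 2 and 3 left out, Irs1 and Irs2 had the highest correlation of any pair of members, a Pearson r of 0.875 over 22 libraries that share depth and RNA state.

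**Figure D5:**
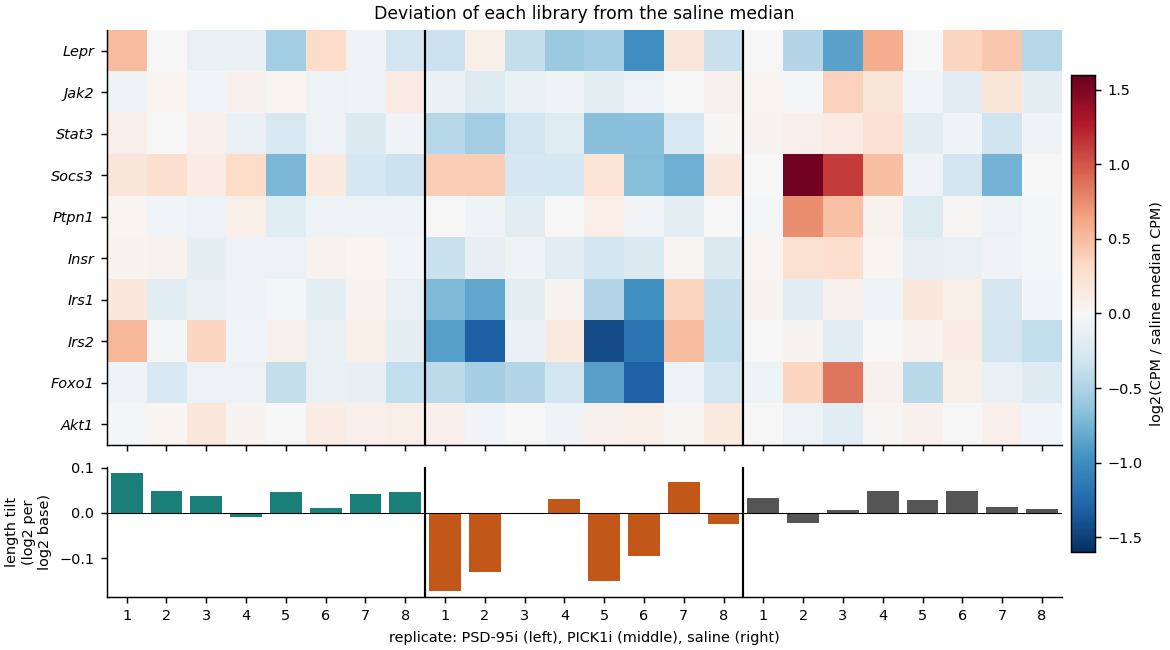
Deviation of each library from the saline median, log2 of the CPM ratio, for the 10 members (rows) in PSD-95i, PICK1i and saline libraries (columns, left to right), above the slope of log2 level on log2 transcript length of the same library. Irs1, Irs2 and Stat3 are deepest blue in the 4 PICK1i libraries with slopes of -0.172 to -0.0951, Foxo1 is lowest in PICK1i replicates 6 and 5, and Socs3, Ptpn1 and Foxo1 are red in saline replicates 2 and 3.

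Akt1, which encodes a kinase downstream of the insulin receptor, did not pass the test in any comparison. It had 139, 149 and 161 CPM in PSD-95i, 137, 147 and 158 CPM in PICK1i and 126, 142 and 151 CPM in saline libraries. The ranges overlapped widely, and the lowest library was saline replicate 3. Its log2 fold change was 0.08 for PSD-95i (edgeR adjusted p = 0.508) and 0.06 ± 0.05 for PICK1i against saline (edgeR adjusted p = 0.440). With 2316 bases, Akt1 has the shortest transcripts of the members, and in the PICK1i libraries of high mitochondrial share it stood at 139 to 153 CPM, against 137 to 158 CPM in the other PICK1i libraries.

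Foxo1, on the plus strand of chromosome 3 at 52268336 to 52353221, had the largest log2 fold change of the members for PICK1i against saline with all 24 libraries; without saline replicates 2 and 3 that of Lepr was larger in size, and without the 4 PICK1i libraries that of Socs3, at -0.70. It had 32.5, 39.1 and 40.9 CPM in PSD-95i, 17.5, 31.5 and 40.6 CPM in PICK1i and 31.6, 42.7 and 77.3 CPM in saline libraries. All 8 libraries of each inhibitor group lay below the saline median, and both groups overlapped the low saline libraries. Without saline replicates 2 and 3 that median was 39.9 CPM. PICK1i replicate 7, at 40.6 CPM, and PSD-95i replicates 1, 3 and 4, at 40.1 to 40.9 CPM, lay above this lower value. Foxo1 averaged 30.4 ± 7.13 CPM in PICK1i and 46.4 ± 14.2 CPM in saline libraries (SD, n = 8 each), a log2 fold change of -0.59 ± 0.15 (SE), or 0.665 times the saline level, with an adjusted p of 0.0215 by edgeR. Its single annotated transcript gave -0.60 ± 0.15 among all transcripts, with an adjusted p of 0.0381, a call likewise lost without either set of libraries. For PSD-95i against saline the value was -0.30 ± 0.14, with an adjusted p of 0.451, and for PSD-95i against PICK1i it was 0.29 ± 0.15, with an adjusted p of 0.219.

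Libraries at both ends bore on the Foxo1 value. Saline replicates 3 and 2 were the highest, at 77.3 and 54.4 CPM, and without them PICK1i against saline was -0.38, with an adjusted p of 0.0780, and PSD-95i against saline -0.08. PICK1i replicates 6 and 5 were the lowest, at 17.5 and 23.4 CPM, and without the 4 PICK1i libraries of high mitochondrial share the value was -0.39, with an adjusted p of 0.373. The call held in 23 of 24 fits that left out 1 library and was lost without PICK1i replicate 5, with an adjusted p of 0.0556. PICK1i replicate 6 also had the highest summed level of 11 cortical and hippocampal genes, all found, at 573 CPM against at most 230 CPM in any other library, and the lowest of 13 tanycyte genes, all found, at 109 CPM. These lists reached 144, 573 and 230 CPM (cortical) and 222, 109 and 237 CPM at their lowest (tanycyte) in PSD-95i, PICK1i and saline libraries, and their part in the Foxo1 level was not tested.

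The other genes of the same pathways that passed the test with PICK1 inhibition were mostly lower. Of 60 further genes listed for leptin or insulin receptor signalling, 58 were tested. For PICK1i against saline 7 were called lower and 2 higher, 15.5% against 9.15% of all genes. The lists also hold genes of other receptors, such as Il6st and Igf1r. Of the 58 log2 fold changes, 44 were below 0, with a median of -0.10 against -0.01 over all genes. With the length slope of each library as a covariate, 0 of the 58 and 2 of all genes were called. In the leptin list, 3 of 22 were called, all lower. These were Il6st, the signal-transducing receptor of the interleukin-6 family, at 97.4 ± 19.9 CPM in PICK1i and 127 ± 8.78 CPM in saline libraries (edgeR adjusted p = 0.0215), the kinase Jak1 (log2 fold change -0.29) and the transcription factor Stat5a (-0.55).

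In the insulin list, 6 of 36 were called. The insulin-like growth factor receptor Igf1r (log2 fold change -0.51), the receptor-type phosphatase Ptprf (-0.30) and the regulatory phosphoinositide 3-kinase subunits Pik3r1 (-0.21) and Pik3r3 (-0.36) were lower, and the catalytic subunit Pik3cd (0.34) and the kinase Gsk3a (0.22) were higher. As with the members, 0 of the 58 were called without saline replicates 2 and 3 and 0 without the 4 PICK1i libraries of high mitochondrial share, and the 9 named genes then had adjusted p of 0.0733 to 0.167 and of 0.376 to 0.573. For PSD-95i, 0 of the 58 were called against saline, and DESeq2 also called 0. In edgeR 8 had an unadjusted p below 0.05, against 1719 of all 15667 genes. Against PICK1i, 0 of the 58 were called, where 24 had an unadjusted p below 0.05 in edgeR, against 3789 of all genes. DESeq2 called 12 of the 58, against 1359 (8.67%) of all genes. For PSD-95i against saline, even the smallest p-values did not pass the threshold. In the leptin list they belonged to the feedback gene Socs2 (log2 fold change -0.81), Rock1 (-0.21) and the receptor-trafficking gene Leprot (-0.18). In the insulin list they belonged to Inppl1 (-0.29), Tbc1d4 (0.32) and the adaptor Grb10 (0.22). Without saline replicates 2 and 3 these log2 fold changes were, in the same order, -0.02, -0.15, -0.12, -0.09, 0.18 and 0.15. For PSD-95i over PICK1i the smallest p-values belonged to Il6st (0.35), Jak1 (0.27) and the phosphatase gene Ptpn11 (0.19), and to Ptprf (0.28), the AKT-activating kinase Pdpk1 (0.34) and the adaptor Irs4 (0.51), with edgeR adjusted p from 0.0513 for Il6st to 0.0754 for Irs4. Without the 4 PICK1i libraries of high mitochondrial share their log2 fold changes ran from 0.07 for Pdpk1 to 0.17 for Irs4.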

How the data were processed

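Estimated counts, by gene and by transcript, were made and deposited by the authors. Per the submitters' processing notes, Salmon and STAR were used after bcl2fastq 2.20.0, on GRCm38, and per the labels' protocols stranded poly(A) libraries were read as 52-base pairs; further settings are unknown here. Within a tolerance of 0.001, 95.7% of the gene-level numbers were whole. Counts were rounded and fitted in R 4.3.3 with edgeR 4.0.16 over all 24 libraries (TMM scaling, filterByExpr with a minimum count of 10, 21 residual degrees of freedom, 15667 genes, two-sided quasi-likelihood tests, Benjamini-Hochberg, threshold 0.05). Standard errors are the log2 fold change divided by the root of the F statistic. The biological coefficient of variation was 14.4%. TPM were computed from transcript counts and GENCODE M21 lengths. Shares were tested by exact permutation in SciPy 1.17.1. The fit was tested on simulated data. Alternatives used RLE factors, no filter, limma 3.58.1, DESeq2 1.42.0, other designs and left-out libraries. Members, gene lists, tests and alternatives were chosen with earlier results of these data known. All members are named; of the pathway lists, called genes are named, or else the 3 with the smallest p.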

Additional observations from a re-analysis of the deposited data

How the results depend on the processing

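For PSD-95i against saline, 0 members and 0 of the 58 pathway genes were called in every alternative run. For PICK1i against saline, 3 members were called with RLE factors, DESeq2, voom without weights and the replicate number as a block. With no filter 2 were called, and 1 with consecutive libraries as a random block. With voom sample weights, only the 2 groups in the fit or the length slope as a covariate, 0 were called. Also 0 were called without saline replicates 2 and 3, without PICK1i replicates 1, 2, 5 and 6, without all 6 and without PICK1i replicates 5 and 6. These sets of left-out libraries were all chosen after seeing the data. Leaving out 1 library gave 0 to 5 members. Of the 58 pathway genes, where 9 were called, these alternatives called 16 with DESeq2, 1 with consecutive libraries as a block and 0 in the other 7 that called 0 members; leaving out 1 library gave 2 to 15. Calls over all genes ran from 299 to 2757 when 1 library was left out, and came to 1991 with DESeq2, 1050 with no filter, 1127 with the block, 316 with consecutive libraries, 5 without saline replicates 2 and 3, 4 without PICK1i replicates 5 and 6, 3 with sample weights and 2 with the length slope, against 1434. For PSD-95i against PICK1i, DESeq2 and the fit without saline replicates 2 and 3 called 1 member each and 12 and 9 pathway genes, voom called 2 pathway genes with and without weights, and leaving out 1 library gave 0 to 4 members and 0 to 20 pathway genes; over all genes, where 0 were called, DESeq2 called 1359, voom 429 without and 436 with weights, the fit without saline replicates 2 and 3 1208, and those without 1 library 0 to 2315.

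Directions turned for values that had not passed the test. For PICK1i against saline, the log2 fold change of Irs1 was 0.0118 without the 4 PICK1i libraries and 0.00244 without all 6, and that of Irs2 was 0.151 and 0.158, and 0.0714 with the length slope. For PSD-95i against saline, Lepr had 0.00114 with voom, Socs3 0.0396 without saline replicates 2 and 3 and 0.0369 without all 6, and Insr 0.0167 and 0.0160, and 0.0118 with sample weights. For PSD-95i against PICK1i, Socs3 had -0.00148 without PICK1i replicates 5 and 6, Ptpn1 0.0208 without the 4 and 0.0208 without all 6, Irs1 -0.0453 and -0.0474, and with the length slope Ptpn1 had 0.0946, Irs1 -0.0857 and Irs2 -0.0296. Leaving out 1 library moved Lepr for PSD-95i against saline from -0.134 to 0.0703, and between the inhibitors Socs3 from -0.0469 to 0.124, Ptpn1 from -0.0365 to 0.00571 and Akt1 from -0.000913 to 0.0450. The long-form share difference ran from -5.12 to 1.30 points for PICK1i and from -0.541 to 5.86 points for PSD-95i against saline, and from 1.77 to 7.68 points between the inhibitors, when 1 library was left out; per kilobase the differences from saline were -2.31 points for PSD-95i and -7.35 points for PICK1i. Of all transcripts, 760 were called for PICK1i against saline, and 0 to 4277 when 1 library was left out, 2215 with DESeq2, 19 with the block, 3 with sample weights and 0 with only the 2 groups. The cause of these changes was not tested. Replicate numbers did not pair the libraries: over 24 same-numbered pairs r ran from -0.194 to 0.15, 5 exceeded 0.1, and 1 of 24 libraries correlated best with its own number. With the replicate block, 3 members were called for PICK1i against saline, and the long-form share had an adjusted permutation p of 0.773 in each comparison. Depth limits Lepr, at 13 to 70 counts per library, and Irs1, at 29 to 149.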

Other observations

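Genes known to be induced by the 2 transcription factors were also listed. Of 15 genes induced by STAT3 in various tissues, 1 was called for PICK1i against saline by edgeR, Stat3 itself, against 9.15% of all genes; the median log2 fold change was -0.13 and 10 of the 15 values were below 0. Of 19 genes induced by FOXO factors, 4 were called. The cell-cycle inhibitor Cdkn1a was higher, at 17.9 ± 3.86 CPM in PICK1i and 13.6 ± 1.69 CPM in saline libraries (SD, n = 8 each; edgeR adjusted p = 0.0377). Sesn3, a stress-response gene, was lower, at 23.9 ± 9.41 CPM in PICK1i and 35.9 ± 5.12 CPM in saline libraries (edgeR adjusted p = 0.0334), and Insr, a member described above, was the third. Without saline replicates 2 and 3 the adjusted p was 0.0925 for Cdkn1a and 0.0737 for Sesn3, and without PICK1i replicates 1, 2, 5 and 6 it was 0.367 and 0.521. Txnip, an inhibitor of thioredoxin that responds to glucose, was lower by the test, at 28.1 ± 7.25 CPM in PICK1i and 67.0 ± 63.8 CPM in saline libraries (edgeR adjusted p = 0.0273), but its log2 fold change of -1.24 was -0.27 without saline replicates 2 and 3, the libraries with pituitary transcripts. For PSD-95i, 0 genes of either list were called against saline, and DESeq2 called 0 of all genes. In edgeR, 1 of 15 and 7 of 19 had an unadjusted p below 0.05, against 1719 of all 15667 genes. The smallest p-values for PSD-95i against saline belonged to Pim1 (log2 fold change -0.51), Cebpd (-0.66) and Socs3 (-0.45), and to Txnip (-1.20), Fbxo32 (-0.43) and Gadd45a (-0.53). Without saline replicates 2 and 3 the log2 fold changes were, in the same order, -0.07, 0.35 and 0.04, and -0.23, -0.24 and -0.18. For PSD-95i over PICK1i, 0 of either list were called in edgeR. There 2 of 15 and 7 of 19 had an unadjusted p below 0.05, against 3789 of all 15667 genes. The smallest p-values belonged to Stat3 (0.29), Serpina3n (0.43) and Fos (-0.34), and to Sesn3 (0.56), Irs2 (0.50) and Pik3ca (0.15).

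The genes whose levels most resembled those of the members across libraries were looked up among 13500 other genes. Group means were removed and saline replicates 2 and 3 left out, over 22 libraries. These genes are given by Pearson's r, as a description of libraries that share depth and RNA state. The value without the 2 libraries farthest from the member's median follows it. For Foxo1 they were Thumpd1 (0.918, then 0.814), Pcgf3 (0.901, then 0.826) and the neuropeptide FF receptor gene Npffr1 (0.899, then 0.784). For Stat3 they were the peptide-amidating enzyme gene Pam (0.886, then 0.832), Arhgap1 (0.88, then 0.824) and Supt6 (0.849, then 0.851), and for Insr Nhsl2 (0.836, then 0.735), Tlr9 (0.805, then 0.708) and Nhlrc3 (0.801, then 0.733). For Socs3 they were the appetite-stimulating neuropeptide gene Npy (0.887, then 0.841), Prph (0.871, then 0.848) and Crip2 (0.866, then 0.827), and for Lepr Erap1 (0.804, then 0.754), Zc3hav1 (0.792, then 0.781) and Atoh8 (0.791, then 0.698). Of the genes named, Tlr9 and Atoh8 were low, with geometric mean levels of 1.22 and 3.03 CPM.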
